A study of Mus musculus with 6 samples.

Results

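In this comparison the 2 mouse livers numbered 3 in their sample titles, 1 wild type (WT) and 1 with Hmgb2 knocked out (HMGB2-KO), were set against the 4 livers numbered 1 or 2, 2 of each genotype, of 6 livers in all. All were livers of male C57BL/6 mice aged 8 weeks, and no treatment or surgery is named for any of them. The livers numbered 3 came from the animals labelled 31 (WT) and 32 (HMGB2-KO), the livers numbered 1 from animals 38 and 39, and the livers numbered 2 from animals 40 and 41. Each liver's total RNA was hybridised to 1 Clariom S mouse array, which reads each gene through several short probes. The labels do not say which part of Hmgb2 was deleted or in which cells. Nothing in them gives the hour of collection, the feeding state or the day of any animal, so these and the liver number cannot be told apart.

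The split by liver number was chosen by measured values: genes of the circadian clock, among them Dbp, Nr1d1, Arntl, Npas2 and Rgs16, had been seen to follow it in these same arrays. Differences between the livers numbered 3 and the other 4 are therefore given as a description, with their standard error but with no test. Each value is a log2 difference from a baseline of the gene's own row, less the median of its array. Differences between livers can be read from such values, while the level of a gene, or of 1 gene against another, cannot. For that reason the tissue label could not be checked against the level of hepatocyte markers. The base of the logarithm is not stated and was taken as 2.

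The cell-autonomous clock is a feedback loop of transcription factors. CLOCK, or its relative NPAS2, pairs with ARNTL (also called BMAL1) on E-boxes and switches on the Period, Cryptochrome, REV-ERB and PAR bZIP genes. PER and CRY proteins then block that pair, and the REV-ERB proteins NR1D1 and NR1D2 repress Arntl, Npas2 and Clock through ROR response elements. In liver the loop and the daily cycle of feeding and fasting together set the rhythm of lipid, glucose, bile acid and detoxification genes.

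Promoters of the named genes were searched for known elements. Of the 114 genes named here, 93 have a promoter window among those searched (RefSeq, GRCm38.p6). Each window spans 250 bases before to 50 bases after the start. The search did not cover every chromosome, so a gene without a window here may still have a window in RefSeq. The windows below were picked because they hold an element known from the loop or, for the metallothioneins, from zinc regulation, so they are examples and not a sample of the named genes. Capitals mark the motif named for each gene, on either strand. They are written in the direction of transcription. For Arntl (chr7:113207261-113207560, plus strand) the capitals are the ROR response element, for Ciart (chr3:95882179-95882478, minus strand) the E-box CACGTG, for Per1 (chr11:69098699-69098998, plus strand) an E-box and then a D-box, TTATGNAA, and for Per3 (chr4:151044616-151044915, minus strand) D-boxes. Per3 also holds 1 metal response element core, left in lower case, and Arntl and Per1 each have another window without these clock elements. For the metallothionein genes Mt1 (chr8:94178839-94179138, plus strand) and Mt2 (chr8:94172368-94172667, plus strand) the capitals are the metal response element core in the form TGCGCNC. Every count and share of that core given here is of this form alone. Both windows also hold the form TGCACNC, which was not searched and is left in lower case.
Arntl: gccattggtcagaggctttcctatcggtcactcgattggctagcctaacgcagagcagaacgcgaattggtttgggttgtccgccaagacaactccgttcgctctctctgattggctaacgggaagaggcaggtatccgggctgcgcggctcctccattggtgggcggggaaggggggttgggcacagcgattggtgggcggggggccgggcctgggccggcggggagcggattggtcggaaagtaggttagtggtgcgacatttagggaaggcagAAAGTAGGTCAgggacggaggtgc
Ciart: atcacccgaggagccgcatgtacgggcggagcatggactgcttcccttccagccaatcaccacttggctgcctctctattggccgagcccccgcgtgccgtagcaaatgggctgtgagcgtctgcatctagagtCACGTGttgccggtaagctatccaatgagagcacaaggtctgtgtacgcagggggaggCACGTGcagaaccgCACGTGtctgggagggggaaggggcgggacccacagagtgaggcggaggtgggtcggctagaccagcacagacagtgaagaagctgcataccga
Per1: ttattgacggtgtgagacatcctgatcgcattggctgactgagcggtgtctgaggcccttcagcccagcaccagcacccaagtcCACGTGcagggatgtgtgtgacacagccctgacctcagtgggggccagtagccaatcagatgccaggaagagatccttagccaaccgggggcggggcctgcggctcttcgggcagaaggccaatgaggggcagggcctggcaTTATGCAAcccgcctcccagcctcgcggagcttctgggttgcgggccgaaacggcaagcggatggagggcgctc
Per3: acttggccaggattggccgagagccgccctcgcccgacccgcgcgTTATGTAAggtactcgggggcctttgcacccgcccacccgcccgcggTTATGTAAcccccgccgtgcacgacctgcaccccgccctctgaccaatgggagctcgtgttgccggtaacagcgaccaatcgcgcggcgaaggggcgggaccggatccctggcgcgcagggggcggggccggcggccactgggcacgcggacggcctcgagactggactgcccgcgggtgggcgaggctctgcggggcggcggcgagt
Mt1: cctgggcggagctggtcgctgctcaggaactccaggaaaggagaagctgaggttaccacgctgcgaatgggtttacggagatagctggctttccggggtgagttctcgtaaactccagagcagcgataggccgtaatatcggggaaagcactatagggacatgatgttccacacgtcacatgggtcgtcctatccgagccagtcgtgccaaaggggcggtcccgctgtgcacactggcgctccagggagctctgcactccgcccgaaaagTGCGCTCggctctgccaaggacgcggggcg
Mt2: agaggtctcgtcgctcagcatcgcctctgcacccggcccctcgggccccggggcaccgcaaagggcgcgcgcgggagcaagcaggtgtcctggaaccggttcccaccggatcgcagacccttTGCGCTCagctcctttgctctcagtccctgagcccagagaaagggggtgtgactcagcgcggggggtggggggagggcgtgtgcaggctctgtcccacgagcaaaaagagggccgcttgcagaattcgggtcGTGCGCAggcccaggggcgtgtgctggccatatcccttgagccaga
Of 32851 windows searched, 0.384% hold the ROR response element, 7.15% the E-box, 3.38% the D-box and 15.4% the metal response element core. Ciart holds 3 E-boxes, at positions -116, -58 and -44 from the start. The palindromic glucocorticoid response element (0.0487% of windows) and the PPAR response element (0.0396%), which shares the letters AGGTCA with the ROR element, were searched as well and are in none of the windows printed. The windows of Dbp and Rgs16 hold none of the searched motifs, and those of Nr1d1 and Npas2 hold only a metal response element core. Among genes with a window, the E-box is in 8.72% of the 195 higher and 9.34% of the 257 lower genes, by the call defined below, against 9.26% of 15691 measured genes. For the D-box the shares are 4.62% and 6.23% against 3.68%, for the ROR response element 0.513% and 0.389% against 0.312%, and for the metal response element core 32.8% and 20.2% against 22.8%. These shares were not tested, and a match describes letters and not a binding site.

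The 6 arrays were alike in most respects, with 1 exception. The column of WT liver 2 had a median of 0.26 as deposited, against -0.05 to 0.01 on the other 5, and its 1091 olfactory receptor genes had a median of 0.25 after centring, against -0.07 to 0.01. It also held 142 genes lying more than 2 log2 below every other liver, against 2 to 25 in the others. Hmgb2, the targeted gene, was at 0.47, 0.36 and 0.42 in WT livers 1 to 3 and at -0.66, -0.33 and -0.43 in HMGB2-KO livers 1 to 3, so both livers numbered 3 lay on the side of their label.

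A gene is called set apart below where both livers numbered 3 lay on 1 side of all 4 others and the fitted difference, with genotype as a term, was at least 1.5-fold. Of 19505 genes, 241 (1.24%) were set apart higher and 327 (1.68%) lower. These shares follow from how the split was chosen and nothing is read from them. At 2-fold the counts were 58 (0.297%) and 113 (0.579%), and with no bound on the fold 2025 (10.4%) and 1817 (9.32%). Without WT liver 2 they were 219 and 309 at 1.5-fold. With the values as deposited, which shift the median of all genes by -0.09, they were 149 and 476, and a list median nearer to 0 than that shift has no settled sign. Among the 327 lower genes 60 were olfactory or vomeronasal receptors, against 3 of the 241 higher genes. All 19505 genes held 1091 olfactory and 321 vomeronasal receptors. The olfactory median was highest in WT liver 2. The part of that array in those receptor counts was not tested. In bulk tissue fewer cells of a type and less RNA per cell cannot be told apart. Counts in the gene lists below were not tested against the shares of all genes.

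Of the 5 genes that mark the split, Nr1d1, which encodes REV-ERBalpha, was at 3.27 and 3.03 in WT livers 1 and 2 and at 2.88 and 2.91 in HMGB2-KO livers 1 and 2. In WT liver 3 it was at -1.57 and in HMGB2-KO liver 3 at -1.52. The difference was -4.56 (SE 0.14), or 23.6-fold lower, and the 4 other livers lay close together. Dbp, a PAR bZIP activator of clock output genes, was at 3.64 and 4.99 in WT livers 1 and 2, at 4.42 and 5.55 in HMGB2-KO livers 1 and 2, and at 0.09 and 0.11 in the WT and HMGB2-KO livers numbered 3. Its difference was -4.55 (SE 0.45), or 23.4-fold lower, and its 2 values in livers numbered 3 almost coincided.

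Rgs16, a regulator of G protein signalling in hepatocytes, had the greatest difference of all 19505 genes. It was at 3.19 and 5.75 in WT livers 1 and 2, at 6.97 and 4.69 in HMGB2-KO livers 1 and 2, and at -0.05 and 0.14 in the WT and HMGB2-KO livers numbered 3. The difference was -5.10 (SE 0.85), or 34.4-fold lower. The 4 higher livers were widely spread, with liver 2 above liver 1 in WT and below it in HMGB2-KO, while the livers numbered 3 lay close together.

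The activators of the loop were on the opposite side. Arntl was at -0.99 and -1.71 in WT livers 1 and 2, at -1.03 and -1.98 in HMGB2-KO livers 1 and 2, and at 0.62 and 0.72 in the WT and HMGB2-KO livers numbered 3, a difference of 2.10 (SE 0.31). Npas2 was at -1.33 and -1.14, at -1.40 and -1.37, and at 0.54 and 0.49 in the same order, a difference of 1.82 (SE 0.13). Both genes lay above every other liver in both livers numbered 3. Clock itself differed less, at -0.05 in WT liver 3 and 0.14 in HMGB2-KO liver 3 against -0.96 to -0.20 in the others (0.60, SE 0.22). Without WT liver 2 its difference was 0.45, which is under 1.5-fold. Rora and Rorb, which encode activating receptors of the ROR element, were at -0.13 (SE 0.15) and 0.08 (SE 0.14) and were not set apart.

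**Figure D1:**
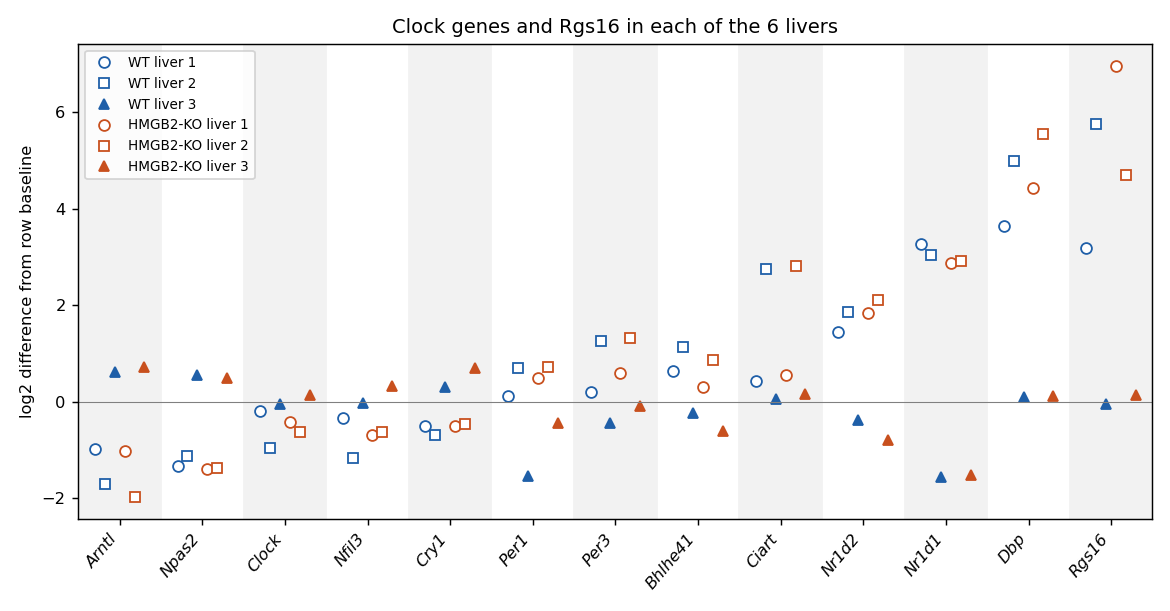
Values of the 12 clock genes that were set apart, and of Rgs16, in each of the 6 livers, as log2 difference from the row baseline after centring. Colour gives genotype, the symbol gives liver number, and filled triangles are the livers numbered 3. In 13 of 13 genes, as the call requires, both filled triangles lie on 1 side of the other 4 symbols. They lie above them for Arntl, Npas2, Clock, Nfil3 and Cry1 and below them for the rest. The 12 measured clock genes that were not set apart are not shown.

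Among the repressors, 6 of 16 measured genes were set apart lower and 2 higher, against 1.68% and 1.24% of all genes. Nr1d2, which encodes REV-ERBbeta, was at -0.39 in WT liver 3 and -0.81 in HMGB2-KO liver 3, against 1.43 to 2.10 in the other 4, a difference of -2.40 (SE 0.22). Per1, a Period gene that also responds to glucocorticoids, was at -1.55 and -0.44 against 0.12 to 0.72 (-1.50, SE 0.26). Here the WT liver numbered 3 was the lower of the 2. Per3 was at -0.45 and -0.10 against 0.21 to 1.31 (-1.12, SE 0.32). Bhlhe41, a repressor that competes for E-boxes, was at -0.23 and -0.60 against 0.29 to 1.12 (-1.14, SE 0.21). Per2 did not follow Per1 and Per3. It was at 0.30 and 0.78 in the livers numbered 3 against -0.04 to 0.50, with overlap (0.34, SE 0.18).

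Cry1, the Cryptochrome that is known to peak late in the cycle, was at 0.30 and 0.69 in the livers numbered 3 against -0.70 to -0.47 in the others, a difference of 1.04 (SE 0.14). Its partner Cry2 was at 0.04 and 0.05 against 0.21 to 0.74 and missed the 1.5-fold bound (-0.34, SE 0.17). Nfil3, a bZIP repressor that acts on the sites of DBP, was at -0.03 and 0.32 against -1.18 to -0.34 (0.86, SE 0.24). Dbp and Nfil3, which bind the same D-box with opposite effect, thus lay on opposite sides. The other PAR bZIP genes differed little, Tef at -0.34 (SE 0.14) and Hlf at -0.29 (SE 0.19). Over the 24 clock genes measured of 26 listed, 5 were set apart higher and 7 lower, against 1.24% and 1.68% of all genes. Clock genes chose the split, so nothing is read from these counts.

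The livers numbered 1 and 2 were not alike either. Ciart, a repressor of CLOCK and ARNTL, was at 0.42 and 0.55 in the WT and HMGB2-KO livers numbered 1, at 2.75 and 2.80 in those numbered 2, and at 0.06 and 0.16 in those numbered 3. The 6 livers thus fell into pairs by number, each pair holding both genotypes, and the livers numbered 1 lay close to those numbered 3. Usp2, a rhythmic ubiquitin protease, was at -0.88 and -0.43 in the livers numbered 1, at 1.10 and 1.88 in those numbered 2, and at -0.07 and -0.68 in those numbered 3, so that it was not set apart. Mfsd2a, a lysophospholipid transporter, was set apart lower (-1.35, SE 0.71) and was at 0.11 and -0.08, at 2.20 and 2.03, and at -0.29 and -0.30 in the same order. Both Usp2 and Mfsd2a were picked for this pattern after their values were seen.

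Among the 24 clock genes, Dbp, Per3 and Ciart were at least 1.5-fold higher in liver 2 than in liver 1 in both genotypes, and Arntl at least 1.5-fold lower. Over all genes 127 (0.651%) were so higher and 37 (0.190%) lower. For Dbp the difference was 1.35 in WT and 1.14 in HMGB2-KO, and for Arntl it was -0.72 and -0.95. For these 4 genes the livers numbered 2 lay farther from the livers numbered 3 than the livers numbered 1 did. Nr1d1, by contrast, differed by -0.23 and 0.03, and Npas2 by 0.19 and 0.02. The sign was shared by both genotypes in 16 of the 24 clock genes, against 50.5% of all genes, and across all genes the correlation of the 2 differences was 0.02 (Pearson, a description over 19505 genes that share arrays).

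Genes that the clock and daily feeding rhythm are known to drive in liver were set apart on both sides. Of 38 such genes 6 were higher and 7 lower, against 1.24% and 1.68% of all genes, with a median difference of 0.01. Elovl3, a fatty acid elongase with a strong daily rhythm, was at 1.91 and 2.03 in the WT and HMGB2-KO livers numbered 3, against -0.93 to 0.36 in the others (2.09, SE 0.30). Cdkn1a, the cell cycle inhibitor p21, was at -0.52 and 0.24 against -3.15 to -2.11 (2.48, SE 0.32). Avpr1a, a vasopressin receptor of pericentral hepatocytes, was at 0.33 and 0.10 against -1.66 to -0.24 (1.19, SE 0.37). Upp2, a uridine phosphorylase, was lower, at 0.76 and 0.50 against 2.08 to 3.46 (-2.26, SE 0.40).

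Lpin1 stood out among metabolic genes. It encodes a phosphatidate phosphatase and nuclear coactivator that fasting and glucocorticoids induce in liver. It was at 3.74 and 5.16 in WT livers 1 and 2, at 4.16 and 5.39 in HMGB2-KO livers 1 and 2, and at -0.68 and 1.33 in the livers numbered 3. The difference was -4.29 (SE 0.56), or 19.5-fold lower. Its paralog Lpin2 was at -0.92 and 0.03 against 1.55 to 2.80 (-2.71, SE 0.30). In both genes the HMGB2-KO liver numbered 3 was the higher of the 2, yet below every liver numbered 1 or 2.

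Genes of fatty acid oxidation and PPARalpha targets are induced in fasting through free fatty acids. Of 41 such genes 10 were set apart lower and 1 higher, against 1.68% and 1.24% of all genes. Their median difference was -0.23 against -0.00 for all genes. The median was -0.06 within WT and -0.39 within HMGB2-KO. The sign was shared by both genotypes in 27 of the 41, against 57.7% of all genes. Angptl4, an inhibitor of lipoprotein lipase, was at -1.76 and -0.75 in the WT and HMGB2-KO livers numbered 3, against 1.42 to 2.29 (-3.02, SE 0.19). The fatty acid omega-hydroxylase genes Cyp4a14, Cyp4a32 and Cyp4a10 were at -3.03 (SE 0.40), -1.89 (SE 0.32) and -1.79 (SE 0.28). They are close copies, so reads of 1 by probes of another cannot be told apart. Cyp4a10 differed by -1.16 in WT and -2.43 in HMGB2-KO. Named after their values were seen, Ppara itself, the receptor, was at 0.48 and 0.19 against 1.32 to 1.56 (-1.13, SE 0.15), and Cpt1a, which admits fatty acids to mitochondria, at -0.50 and -0.82 against 0.51 to 0.91 (-1.31, SE 0.17). The 1 higher gene was Pdk4, a kinase that spares glucose in fasting, at 0.00 and 0.42 against -0.68 to -0.31 (0.73, SE 0.18).

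The list of gluconeogenesis and fasting genes had 10 of 35 members set apart lower and 3 higher, against 1.68% and 1.24% of all genes. Without WT liver 2 the list counts were 8 and 3. The list median was -0.26. Igfbp1, a secreted IGF-binding protein that insulin represses, was at -2.11 and -0.82 against -0.14 to 1.5 (-1.97, SE 0.49). Pck1, the gluconeogenic carboxykinase, was at -1.01 and 0.19 against 0.88 to 1.16, a difference of -1.94 in WT and -0.86 in HMGB2-KO. The glucose-6-phosphatase gene G6pc, which completes the pathway, overlapped between the livers (-0.36, SE 0.26). Gys2, liver glycogen synthase, was lower (-0.98, SE 0.24), while the glycogen-targeting subunit genes Ppp1r3c and Ppp1r3b were higher (1.15, SE 0.41 and 1.02, SE 0.17). For Ppp1r3c the difference was 0.17 in WT and 2.13 in HMGB2-KO. The glycogen genes Gys2 and Ppp1r3b, and G6pc, were named after their values were seen.

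Glucocorticoid-induced genes gave 9 of 28 set apart lower and 3 higher, against 1.68% and 1.24% of all genes, with a median of -0.10. That median was -0.26 within WT and 0.01 within HMGB2-KO. Besides Lpin1 and Per1, the lower genes included Zbtb16, a transcriptional repressor, at -0.01 and -0.31 against 1.35 to 2.32 (-2.19, SE 0.26). Fkbp5, a chaperone of the glucocorticoid receptor and a sensitive readout of it, was at -0.87 and -0.99 against 0.07 to 1.81 (-1.93, SE 0.51). It too was higher in the livers numbered 2 (1.65 and 1.81) than in those numbered 1 (0.47 and 0.07). Tsc22d3, a further target of the receptor, was at -0.16 (SE 0.50) and was not set apart. Fkbp5, Zbtb16 and Tsc22d3 were named after their values were seen.

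The metallothionein genes Mt1 and Mt2, whose small proteins bind zinc and which glucocorticoids, zinc and inflammation induce, were far lower in the livers numbered 3. Mt2 was at -4.48 and -0.42 in WT livers 1 and 2, at -0.28 and -1.69 in HMGB2-KO livers 1 and 2, and at -6.37 and -6.61 in the livers numbered 3. Mt1 was at -2.49 and -0.17, at -0.05 and -1.21, and at -5.07 and -5.20 in the same order. The differences were -4.77 (SE 1.07) and -4.15 (SE 0.64). WT liver 1 was the lowest of the livers numbered 1 or 2 for both genes, and lay apart from the livers numbered 3. The zinc importer gene Slc39a14 was lower as well, at -0.76 and -0.73 against 0.02 to 0.63 (-1.04, SE 0.17).

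Most other acute-phase genes that were set apart lay on the higher side, 8 of 31 against 4 lower. Mt1 and Mt2 are 2 of those 4. The shares of all genes were 1.24% higher and 1.68% lower. Saa1 and Saa2 encode serum amyloid A, which inflammation induces strongly. Saa2 was at -5.74 and -5.88 in WT livers 1 and 2, at -6.09 and -5.28 in HMGB2-KO livers 1 and 2, at -3.67 in WT liver 3 and at -0.89 in HMGB2-KO liver 3. Saa1 was at -2.48 in WT liver 3 and -0.43 in HMGB2-KO liver 3, against -4.95 to -4.04. Saa2 thus differed by 2.13 in WT and 4.80 in HMGB2-KO, and the latter liver lay highest of all 6 for both genes. Lcn2, an iron-sequestering protein of the acute phase, was at -3.28 and -2.85 against -5.33 to -4.43 (1.88, SE 0.27). Orm2, an orosomucoid and in the same list, was at -1.32 and -0.92 against -2.60 to -1.83 (1.15, SE 0.25).

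The receptor genes Il6ra (-1.70, SE 0.28) and Il1r1 (-0.98, SE 0.48), through which liver cells sense the cytokines of the acute phase, were the other 2 on the lower side. Il1r1 was at 1.08 and 1.54 in the livers numbered 2 and at -0.15 and 0.02 in those numbered 1, against -0.29 and -0.43 in those numbered 3. Orm2, Il6ra and Il1r1 were named after their values were seen. Of 19 Kupffer cell and macrophage markers 0 were set apart, and the list's median lay between 0.15 and 0.43 in the livers numbered 1 or 2 and at 0.36 and 0.54 in those numbered 3. Of 20 lymphocyte and neutrophil markers 0 were set apart either. Over all genes 1.24% were set apart higher and 1.68% lower, so nothing is read from these 2 counts. The part of immune cells in the acute-phase values was not tested.

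Hamp and Hamp2 encode hepcidin, the hormone that closes iron export, and its close copy. Hamp was at 1.30 and 1.13 in the livers numbered 3 against -1.31 to -0.66 (2.14, SE 0.18), and Hamp2 at 1.5 and 1.38 against -0.57 to -0.42 (1.97, SE 0.12). Both were about as far apart in WT as in HMGB2-KO (Hamp 2.09 and 2.19). Tfrc, the transferrin receptor, was higher too (0.97, SE 0.23), by 0.61 in WT and 1.33 in HMGB2-KO. Hjv, the hemojuvelin coreceptor that drives Hamp, was named after its values were seen and was at 0.68 (SE 0.17).

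**Figure D2:**
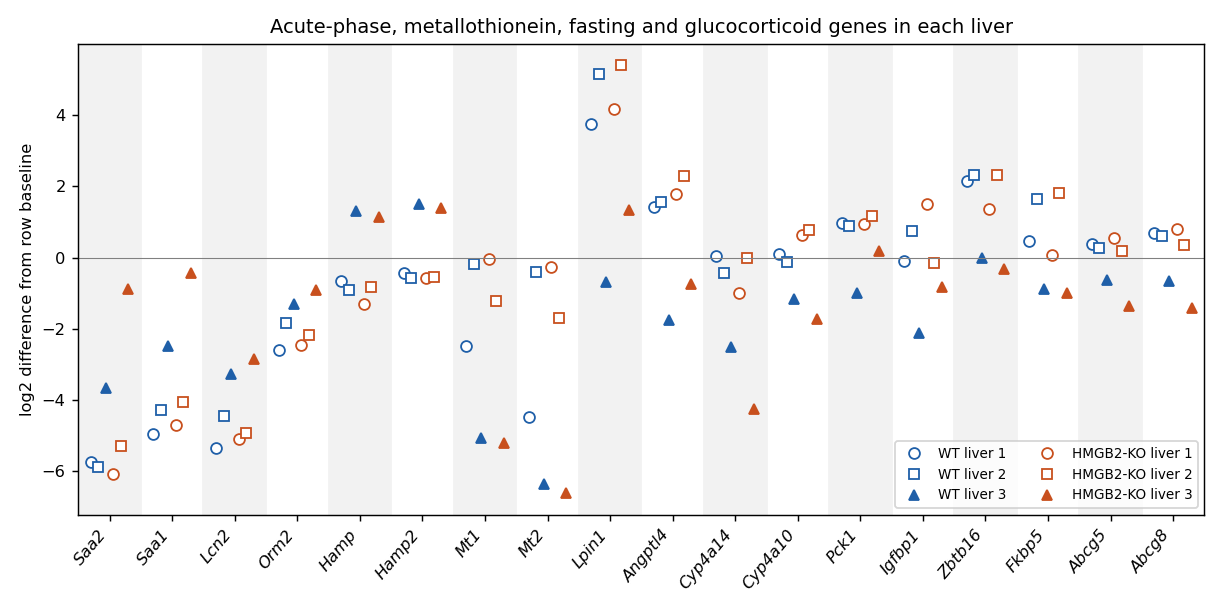
Values of 18 acute-phase, iron, metallothionein, fasting, glucocorticoid and sterol export genes in each liver, as log2 difference from the row baseline after centring. Symbols are as in the plot of clock genes. The filled triangles of the livers numbered 3 lie above the other livers for the 6 genes from Saa2 to Hamp2 and below them for the 12 genes from Mt1 to Abcg8.

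Lipid synthesis genes did not move as 1 group. Of 33 lipogenic genes 3 were set apart higher and 2 lower, against 1.24% and 1.68% of all genes, with a median of 0.10. Fasn, fatty acid synthase, was at 0.02 and 0.97 in the WT and HMGB2-KO livers numbered 3 against -1.46 to -0.01, a difference of 0.70 in WT and 1.71 in HMGB2-KO. Mid1ip1, which activates acetyl-CoA carboxylase, was at 1.02 and 1.27 against -0.74 to 0.83 (1.24, SE 0.41). Elovl6, an elongase of the same pathway, was lower, at -0.21 and 0.24 against 0.74 to 1.14 (-0.99, SE 0.19).

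Cholesterol synthesis and uptake genes, which SREBP2 drives when cells lack sterol, were positive in 22 of 24. In this list 6 were set apart higher, against 1.24% of all genes, and the list median was 0.53. That median rested on HMGB2-KO livers. It was -0.00 within WT and 1.08 within HMGB2-KO, and 0.27 without HMGB2-KO liver 2. In single livers the 24 genes had a median of 0.34, -0.08 and 0.13 in WT livers 1 to 3 and 0.08, -0.80 and 0.56 in HMGB2-KO livers 1 to 3. In 21 of the 24 genes HMGB2-KO liver 2 was the lowest of the 6 livers, and in 15 HMGB2-KO liver 3 was the highest. Pmvk, a kinase of the mevalonate pathway, was at 0.57 and 0.44 in the livers numbered 3 against -1.21 to -0.11 (1.12, SE 0.23). Insig2, which retains the sterol sensor in the endoplasmic reticulum, was at 0.71 and 0.81 against -0.17 to 0.18 (0.73, SE 0.15). Sqle, the squalene epoxidase that is rate-limiting in the later pathway, was at 0.68, 0.40 and 0.18 in WT livers 1 to 3 and at -0.10, -1.49 and 1.20 in HMGB2-KO livers 1 to 3. It was named after its values were seen, and it was not set apart.

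**Figure D3:**
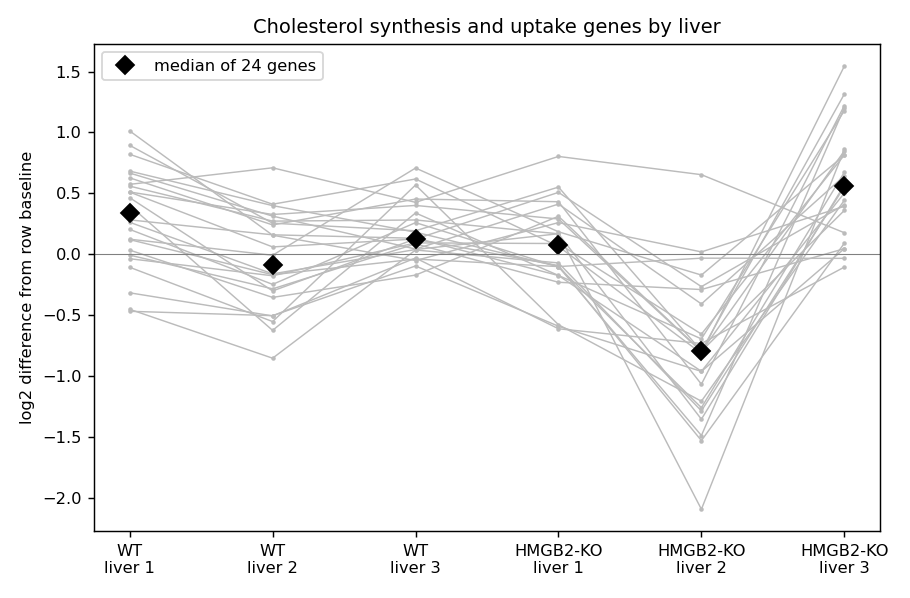
Each grey line is 1 of 24 cholesterol synthesis and uptake genes across the 6 livers, and black diamonds are their median in each liver, as log2 difference from the row baseline. Lines join the values of a gene and show no order among livers. The median is lowest in HMGB2-KO liver 2 (-0.80) and highest in HMGB2-KO liver 3 (0.56), while WT liver 3 (0.13) lies between WT liver 1 (0.34) and WT liver 2 (-0.08).

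Sterol and bile handling followed liver number in both genotypes through a few genes. Abcg5 and Abcg8, the partners in the transporter that exports sterols into bile, were at -1.35 (SE 0.21) and -1.65 (SE 0.21). Abcg8 was at -0.67 and -1.42 in the WT and HMGB2-KO livers numbered 3 against 0.35 to 0.79 in the others. Klb, a coreceptor for the gut hormone FGF15, was at -0.21 and -0.24 against 0.34 to 1.55, by -1.45 in WT and -0.67 in HMGB2-KO. Cyp7a1, the rate-limiting enzyme of bile acid synthesis, overlapped, at 0.94 and 0.00 against -1.74 to 0.31, and was looked up after its values were seen. The whole list had 3 of 28 set apart lower and 0 higher, against 1.68% and 1.24% of all genes, with a median of 0.07. Of 31 xenobiotic receptors and their targets 2 were set apart, both lower, Cyp2b10 (-1.13, SE 0.45) and Cyp3a25 (-0.91, SE 0.24).

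Further leading genes, apart from Cdh1, belonged to none of the lists. Higher in the livers numbered 3 were Tsc22d1, a leucine zipper regulator (2.21, SE 0.28, by 1.60 in WT and 2.82 in HMGB2-KO), Tubb2a, a beta-tubulin (2.13, SE 0.52), and Grk5, a kinase of G protein-coupled receptors (2.09, SE 0.22). Lgalsl (1.84, SE 0.22) and Nat8f5 (1.83, SE 0.20) were also higher. Tubb2a was at -1.70 and -1.74 in the livers numbered 1, at -3.43 and -2.96 in those numbered 2, and at -0.35 and -0.31 in those numbered 3, again in pairs by number. Lower were Gpcpd1, a glycerophosphocholine phosphodiesterase (-2.45, SE 0.34), Slc25a47, a mitochondrial carrier of liver (-2.39, SE 0.17), and Txnip, which restrains glucose uptake (-2.34, SE 0.30). St3gal5, a ganglioside sialyltransferase, was at -2.21 (SE 0.39). Cdh1, the epithelial cadherin and a member of the periportal list, took much of its difference from WT liver 2. It was at -5.10 there, at -0.98 to -0.25 in the other livers numbered 1 or 2, and at 0.08 and 0.55 in those numbered 3, and its difference of 2.05 (SE 1.07) became 1.01 without WT liver 2, where it was still set apart.

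Most stress and growth lists held genes set apart. Over all genes 1.24% were set apart higher and 1.68% lower, and the list counts were not tested against these shares. Of 19 genes responsive to cold or heat 1 was set apart, the chaperone partner Dnajb1, at 0.14 in WT and 1.09 in HMGB2-KO. In that list 15 of 19 were positive (median 0.33). The median of 19 genes of the unfolded protein response was -0.09 in WT and 0.46 in HMGB2-KO. Herpud1, which serves degradation of proteins from the endoplasmic reticulum, was set apart lower, by -1.98 in WT and -0.56 in HMGB2-KO. Of 31 immediate-early genes 3 were lower, Egr1 (-2.92 in WT and -1.10 in HMGB2-KO), Klf10 (-1.54, SE 0.20) and Zfp36 (-0.96, SE 0.28). The ribosome biogenesis list was positive in 20 of 21 genes (median 0.23); 12 of the 21 had the same sign in both genotypes, and the list's median was lowest in WT liver 2 (-0.29) and HMGB2-KO liver 1 (-0.26). Over all genes 9750 of 19505 were positive. In that list the polyamine genes Srm (0.89, SE 0.32) and Odc1 (0.66, SE 0.16) were set apart. Of 42 cell cycle genes Mcm4 (0.76, SE 0.22) and Bub1 (0.75, SE 0.17) were set apart higher. Of 20 ATF4 targets Asns was lower and Atf4 higher (-0.81 and 0.76, Atf4 not without WT liver 2), of 36 amino acid and urea cycle genes Got1 alone was lower (-1.16, SE 0.14), and of 26 growth hormone and STAT5 genes Elovl3 and Igfals (0.64, SE 0.18, and 0.52 without WT liver 2, under the bound) were higher. None of 21 NRF2 targets was set apart, and of 34 interferon response genes Cxcl10 was (0.60), though not without WT liver 2.

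Markers of cell types and of other tissue held few or no genes set apart. Over all genes 1.24% were set apart higher and 1.68% lower. Lists this short would hold few or none at that share, so their counts do not show that cell types were alike between the livers. Among 25 hepatocyte identity genes 0 were set apart, with a median of 0.09, and likewise 0 of 12 cholangiocyte, 0 of 19 stellate and matrix and 0 of 20 markers of neighbouring tissue. Of 19 endothelial markers 1 was, Gata4 (0.60, SE 0.25), which lost the call without WT liver 2. The hepatocyte gene with the greatest difference, Apoa2 (1.77, SE 1.90), owed it to WT liver 2, at -7.26, and was at -0.08 without it. Of 6 erythroid and blood genes Tfrc alone was set apart. Zonal markers lay on both sides, with Avpr1a and Slc1a2 (-0.66, SE 0.15) of 19 pericentral genes on opposite sides. Of 41 cytosolic ribosomal protein genes 0 were set apart, and of 47 genes of oxidative phosphorylation Ndufs7 alone, which was at -3.47 in WT liver 2 and differed by 0.21 without it.

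**Figure D4:**
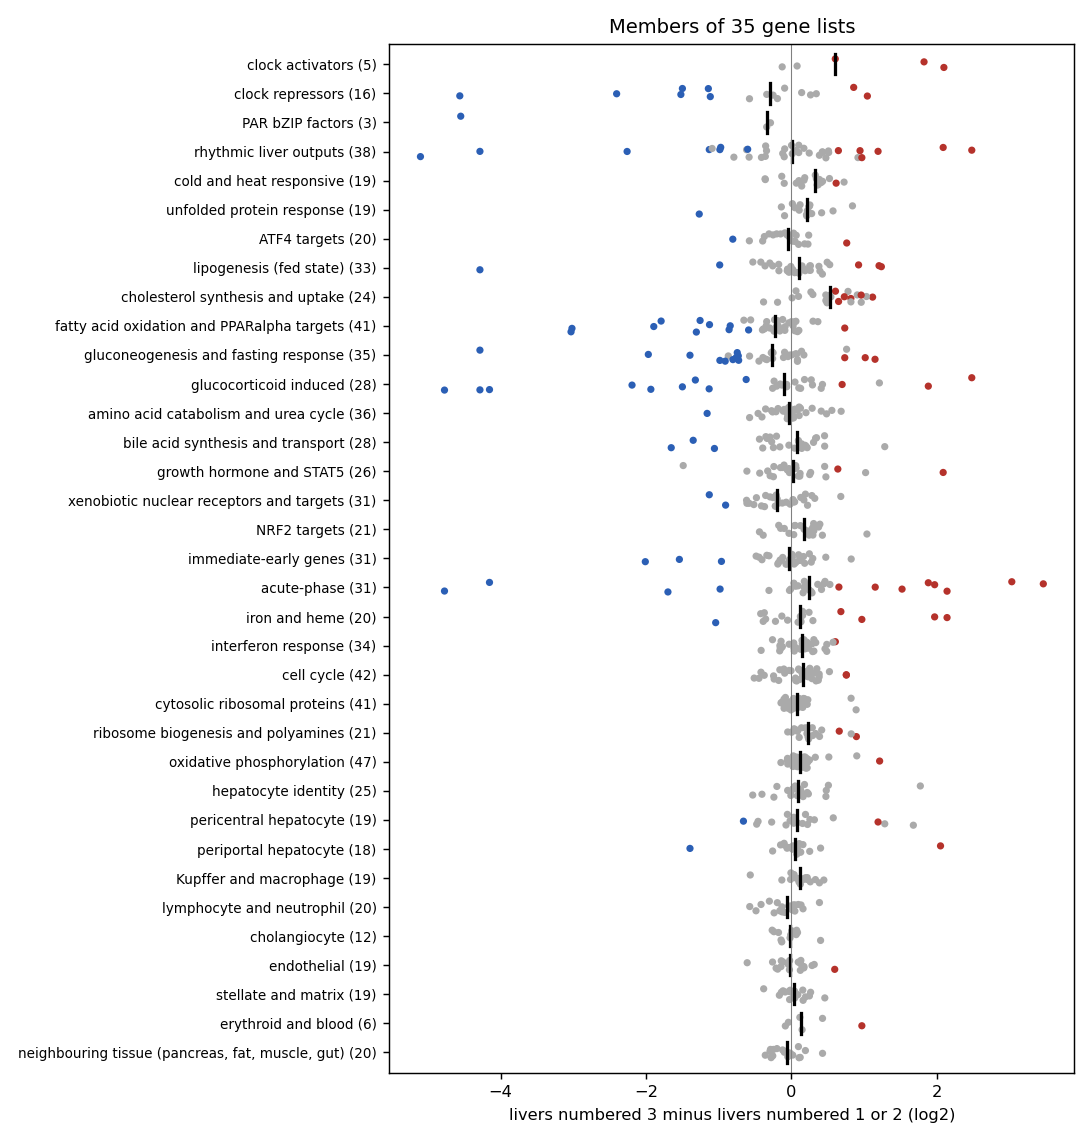
Each point is 1 measured gene of the list named at the left (number measured in brackets), placed by its difference between the livers numbered 3 and the livers numbered 1 or 2 on the log2 scale. Red points are genes set apart higher, blue points genes set apart lower, grey points the rest, and black bars the list medians. Clock, fasting, glucocorticoid and acute-phase genes reach beyond 2 log2 on at least 1 side. So do rhythmic output, lipogenesis, PPARalpha, iron, growth hormone, periportal and immediate-early genes. The medians lie between -0.34 and 0.60.

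The difference of liver 3 is set side by side in WT and HMGB2-KO, which share no array but whose values together chose the split. Across the 19505 genes the WT and HMGB2-KO differences had a Pearson correlation of 0.29 and a Spearman correlation of 0.23, given as a description over genes that are not independent, and the sign was shared by 57.7% of genes. Of the 5 markers, Nr1d1 had a difference of -4.72 within WT and -4.41 within HMGB2-KO, Arntl of 1.97 and 2.22, Npas2 of 1.78 and 1.87, Dbp of -4.22 and -4.88, and Rgs16 of -4.52 and -5.69. They were chosen because they follow the split in both genotypes, so their likeness across genotypes supports nothing. The split itself came from these same arrays of both genotypes, so the correlations and the shared sign over all genes support nothing either. Over all genes, whether the difference varies with genotype was fitted as an interaction in limma. Each genotype has 1 liver numbered 3, so the error of this term comes only from livers 1 against 2, and a single liver can make it.

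No gene passed that test (0 of 19505 at an adjusted p of 0.05, Benjamini-Hochberg, 0%), the smallest adjusted p was 0.215, and 618 genes (3.17%) had an unadjusted p under 0.05. The genes named here are the 3 of smallest p in each direction. Onecut1, the hepatocyte factor HNF6, was at 2.66 in WT liver 3 and -0.40 in HMGB2-KO liver 3 (interaction -4.08, SE 0.28, limma adjusted p = 0.215). Its other livers differed by genotype, at 0.22 and 0.08 in WT and 1.12 and 1.21 in HMGB2-KO. Cyp26a1, which degrades retinoic acid, was at 2.93 in WT liver 3 and between -0.86 and -0.20 in the other 5 livers (interaction -3.59, SE 0.43, limma adjusted p = 0.791). Akr1cl was at -0.73 in WT liver 3 and 0.77 in HMGB2-KO liver 3. There too the other livers differed by genotype, at 1.81 and 1.49 in WT and -0.78 and -0.68 in HMGB2-KO. In the remaining 3 genes, as in Cyp26a1, 1 liver stood away from the other 5. Glipr1l1 was at -2.36 in HMGB2-KO liver 3 and between 0.01 and 0.13 elsewhere. Ooep was at -2.39 in WT liver 3 and between -0.31 and 0.06 elsewhere. Hbb-y, an embryonic globin, was at -2.15 in WT liver 3 and between -0.13 and 0.30 elsewhere. The count depended on single livers. It was 126 without WT liver 1, 10 without WT liver 2 and 1 with quantile normalization.

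**Figure D5:**
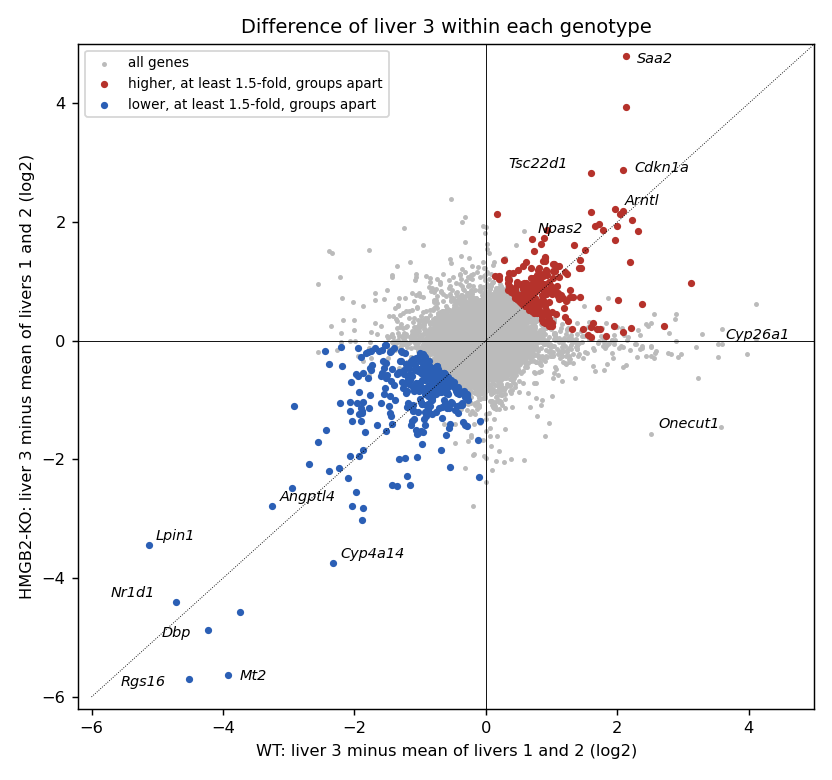
Each point is 1 of 19505 genes, placed by the difference of liver 3 from the mean of livers 1 and 2 in WT (x axis) and in HMGB2-KO (y axis), on the log2 scale. Red and blue points are genes set apart higher and lower, and the dotted line marks equal differences. Nr1d1 (-4.72 and -4.41), Arntl (1.97 and 2.22) and Npas2 (1.78 and 1.87) lie near that line, Rgs16 lies below it (-4.52 and -5.69), and Onecut1 and Cyp26a1 lie far from it.

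For the clock markers the interaction is given as a description only. Dbp had an interaction of -0.65 (SE 0.95), Nr1d1 of 0.31 (SE 0.29), Arntl of 0.25 (SE 0.67) and Rgs16 of -1.17 (SE 1.79). Errors of this size leave room for such differences, and likeness of the genotypes is not shown. In the cholesterol list 23 of 24 genes had a more positive difference in HMGB2-KO than in WT, against 53.0% of all genes, and 0 passed the adjusted threshold (2 at an unadjusted p under 0.05).

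HMGB2-KO and WT were also compared with liver number as a term, which leaves each fold change as it is in this balanced design and takes the variation described above out of the error. No gene passed (0 of 19505, 0%, smallest limma adjusted p 0.128), and 817 (4.19%) had an unadjusted p under 0.05, against 717 with genotype alone. Hmgb2 ranked 9 by p. None of the 24 clock genes had an unadjusted p under 0.05, and the smallest adjusted p among them was 0.950. Clock genes of these same arrays chose the split, so this does not show that they were alike between genotypes. Slc17a3, an organic anion transporter, was both set apart higher (0.80, SE 0.13) and among the genes of smallest p for genotype, at -0.04, 0.02 and 0.75 in WT livers 1 to 3 and 0.43, 0.60 and 1.36 in HMGB2-KO livers 1 to 3 (limma adjusted p = 0.950).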

How the data were processed

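Deposited values of 6 arrays were used, 1 column per liver, on a log scale taken as log2 and set against an unstated baseline per row. How the authors summarized and normalized the probes, and their logarithm base, no source used here says. The table holds 22206 rows, of which the platform annotation names 19572 with 1 gene symbol each. Arrays were centred on their medians and the row with the highest mean was kept for 55 genes with several rows, leaving 19505 genes. The split by liver number, the gene lists (35, with 867 of 968 entries measured) and the rules were chosen with earlier results of these data known.

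Differences between livers numbered 3 and livers numbered 1 or 2 were fitted with limma 3.58.1 in R 4.3.3, with genotype as a term. Genotype and its interaction with liver number were tested with lmFit and eBayes (two-sided, Benjamini-Hochberg over all genes, threshold 0.05). Standard errors are moderated. The fits were tested on simulated data. Nothing in the labels says that livers of a number share a day or litter, and p-values measure the spread between these livers, whose small number limits the precision. A filter on low levels was not possible without levels.

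Named by rule were Hmgb2, the 5 markers, the clock lists, the 15 genes per direction with the largest difference among genes set apart (receptors, predicted genes, small RNAs and antigen receptor segments left out), up to 4 leading members of each other list, and the 3 genes per direction of smallest p for genotype and interaction. Other genes were chosen after their values were seen, as stated beside them.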

Additional observations from a re-analysis of the deposited data

Results flagged for a closer look

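In the 4 livers numbered 1 or 2, 1 liver lay far from the other 3 for 7 of the 114 named genes, by a gap that exceeds the 95% critical value of Dixon's ratio for 4 samples. Chance alone flags about 1 in 20 groups picked without regard to their values, and these genes were not picked so. In 5 of the 7 the liver was WT liver 2, whose array stands apart, with Apoa2 at -7.26, Cdh1 at -5.10, Rps20 at -4.41, Ndufs7 at -3.47 and Rps18 at -3.36. These 5 genes were named for the size of their difference, to which the low value of WT liver 2 added. Without that liver Apoa2 went from 1.77 to -0.08 and Ndufs7 from 1.21 to 0.21. The naming rule thus favoured WT liver 2, and nothing is read from its count. The others were Rora in HMGB2-KO liver 1, at -0.27, and Ooep in HMGB2-KO liver 2, at -0.31.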

How the results depend on the processing

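The count of genes set apart higher, 241, was 149 with the values as deposited, 58 at 2-fold, 2025 with no fold bound, and 219 to 475 with 1 liver left out (475 without WT liver 3, 416 without HMGB2-KO liver 3 and 370 without WT liver 1). The count lower, 327, was 113 at 2-fold, 1817 with no fold bound, and 309 to 800 with 1 liver left out (800 without HMGB2-KO liver 3 and 557 without WT liver 3). Groups of fewer livers separate more easily, so these counts are not of 1 kind. Of the 241 genes, 181 were also set apart without WT liver 2, and of the 327, 274 were. With the values as deposited 149 of the 241 and 327 of the 327 stayed in their call. Quantile normalization, the mean of a gene's rows, array weights and leaving out receptor and predicted genes kept both counts within 1.5 times. Among the 76 named genes set apart none changed sign under any alternative run. In the runs that leave a liver out, or weight or block the livers, the call itself fixes the sign. Nothing is read from the sign there. Quantile normalization moved Saa2, Lcn2 and Egr1 by over 1.5 times. Leaving out HMGB2-KO liver 3, which leaves the WT difference, moved 11 of the 76 by over 1.5 times (Saa2, Cdh1, Dnajb1, Herpud1, Fasn, Fdps, Cyp4a10, Ppp1r3c, Tfrc, Ndufs7 and Hbb-y), and leaving out WT liver 3 also moved 11 (Cdh1, Dnajb1, Herpud1, Fdps, Pck1, Ppp1r3c, Klb, Egr1, Ndufs7, Gata4 and Hbb-y). Without WT liver 2 Cdh1 and Ndufs7 moved so far, without WT liver 1 Ndufs7, and without HMGB2-KO liver 2 Fdps.

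No gene differed between genotypes in any of the 14 other fits run. The interaction count of 0 was 1 with quantile normalization and 0 to 126 with 1 liver left out, and the cause was not tested. It could not be fitted without either liver numbered 3. A replicate block, with liver number as 3 levels, left the counts at 241, 327 and 0 for genotype (858 genes at an unadjusted p under 0.05). Deviations of same-numbered livers from their genotype means had correlations across genes of 0.04, 0.13 and 0.29 for numbers 1 to 3. HMGB2-KO liver 1 correlated at 0.10 with WT liver 2. The liver 3 difference that chose the split enters every genotype mean, and so the deviations of livers 1 and 2 too. Liver 2 minus liver 1, which leaves liver 3 out, had a correlation of 0.02 between genotypes. The correlations of deviations can therefore neither show nor reject a pairing, and the block is not taken as one.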
